A study of Rattus norvegicus with 12 samples.

Results

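The nucleoside salvage genes described here were chosen by name: every entry of the deposited liver table whose gene name was Dguok, Tk2, Dck, Upp1, Upp2, Uck1, Uck2, Tymp, Cda or Dpyd. Of these 10 genes, 9 were found, and Dpyd was not analysed here. The 9 genes held 16 of the 34391 entries in the table. Each entry, called a transcript below, is 1 annotated transcript of a gene. All 16 were above 0 in at least 1 liver. Dguok and Upp2 had been picked for their difference between the groups in these same livers, so their values are given as a description without a test. The other genes were added as their relatives.

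Livers came from 12 female rats of the inbred alcohol-preferring iP10a strain, and 1 poly(A) RNA library was sequenced per animal. The 6 EtOH animals could drink from bottles of 10, 20 and 30% ethanol for 23 weeks beside water and food, and the 6 controls had water and food only. All animals were 38 weeks old at collection except EtOH animal 6, at 39 weeks. Intake was voluntary and the groups were not pair-fed, so ethanol exposure and any change in food intake that came with it cannot be told apart.

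Cells recover nucleosides from the breakdown of RNA and DNA and from blood instead of building every nucleotide anew. Kinases return them to the nucleotide pool by adding a phosphate, while phosphorylases and deaminases take them apart or interconvert them. The liver is a main site of uridine breakdown, and its mostly nondividing cells rely on mitochondrial deoxynucleoside kinases for the building blocks of mitochondrial DNA. Deoxyguanosine kinase (Dguok) is the mitochondrial kinase for purine deoxynucleosides, and inherited loss of it in people causes liver failure with depletion of mitochondrial DNA. Uridine phosphorylase 2 (Upp2) splits uridine into uracil and ribose 1-phosphate and is known as the liver form of the enzyme.

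The promoters of the genes that the results turn on are shown for context, each from 250 bases before to 50 bases after the annotated start in the GRCr8 annotation of RefSeq, which held all 10 genes. The transcript positions given further on come from the deposited table, for which the genome build was not given in the sources used here, and are not interchangeable with these. Capitals mark matches, on either strand, to the TATA box letters TATAAA, the CCAAT box, the GC box letters GGGCGG or the nuclear receptor letters TGACCT. Dguok (chr4:117572365-117572664, minus strand) and Upp2 (chr3:63681576-63681875, plus strand) are printed because their transcripts had been chosen for a difference, and Upp1 (chr14:88024420-88024719, plus strand) because it is the other uridine phosphorylase.
Dguok: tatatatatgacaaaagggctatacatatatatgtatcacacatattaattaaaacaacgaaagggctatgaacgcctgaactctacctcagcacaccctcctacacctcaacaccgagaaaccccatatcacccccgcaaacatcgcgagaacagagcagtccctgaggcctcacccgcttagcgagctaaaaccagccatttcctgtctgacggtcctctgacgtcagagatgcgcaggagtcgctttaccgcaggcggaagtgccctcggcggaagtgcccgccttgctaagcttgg
Upp2: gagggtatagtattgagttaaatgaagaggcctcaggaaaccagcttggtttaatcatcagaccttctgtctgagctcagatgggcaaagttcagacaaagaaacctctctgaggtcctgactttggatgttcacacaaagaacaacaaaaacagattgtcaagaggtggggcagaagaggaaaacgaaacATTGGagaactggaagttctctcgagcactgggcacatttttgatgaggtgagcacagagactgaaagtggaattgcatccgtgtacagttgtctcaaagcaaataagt
Upp1: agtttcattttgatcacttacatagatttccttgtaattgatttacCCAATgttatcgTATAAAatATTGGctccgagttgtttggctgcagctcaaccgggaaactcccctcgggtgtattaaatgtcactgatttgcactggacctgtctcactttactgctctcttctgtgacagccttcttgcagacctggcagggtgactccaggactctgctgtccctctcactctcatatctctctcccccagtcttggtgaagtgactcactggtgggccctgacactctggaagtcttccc
The Dguok window held none of these letters and 17 CpG dinucleotides, against a median of 7 over 33469 windows of this length. The Upp2 window held 1 match, to the CCAAT box on the reverse strand, and 3 CpG dinucleotides. The Upp1 window held 1 TATAAA, 2 CCAAT boxes and 4 CpG dinucleotides. Over all windows, TATAAA was present in 14.2%, the CCAAT box in 37.5%, GGGCGG in 33.1% and TGACCT in 16.2%. These are matches of letters only, and no binding was measured.

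Values are RPKM, reads scaled to the length of the transcript and to the mapped reads of the library, so levels can be set side by side between genes. Each transcript, and each gene as the sum of its transcripts, was compared between the groups with limma over the whole table, and a difference was called when its Benjamini-Hochberg adjusted p was under 0.05. Whole reads could be recovered from the RPKM steps. Sequencing was paired-end, and whether a recovered unit, called a read here, is 1 read or 1 pair was not tested. Between 2610238 and 4318141 reads per control liver and between 3945593 and 6030028 per EtOH liver fell on listed transcripts, so the EtOH libraries were deeper on the whole. The hepatocyte markers summed to between 67994 and 96266 RPKM in control and between 76786 and 103330 in EtOH livers, with albumin (Alb) the most abundant. Of 5 Kupffer cell and macrophage markers measured, 4 rose in EtOH livers, and their sum was 88.5 to 133 RPKM in controls and 122 to 149 in EtOH livers, led by Clec4f. One of 6 stellate cell markers (Col3a1), 1 of 5 hepatocyte markers (Cps1) and 1 of 2 dividing cell markers (Ccnb1) also rose. None of the 3 endothelial (led by Lyve1), 3 bile duct (led by Epcam) and 6 lymphocyte markers (led by Ptprc) passed the limma test. The part of these shifts in the results below was not tested. In whole liver, fewer cells of a type and less RNA per cell cannot be told apart.

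One of the Dguok transcripts was read in every control liver and in no EtOH liver, while the gene as a whole differed far less. Dguok was listed as 2 transcripts on chromosome 4 that share the lower listed position, 117697251. The higher position was 117725383 for Dguok.1, of 997 nucleotides, and 117724657 for Dguok.2, of 889 nucleotides. Listed positions run along the chromosome. Dguok lies on the minus strand, so the shared position is on the side where transcription ends. The lengths, which the table does not print, follow from the recovered reads. The 2 transcripts thus differed by 108 nucleotides in length, and their higher positions lay 726 bases apart.

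Dguok.1 measured 8.27, 4.63, 4.75, 4.36, 3.91 and 2.96 RPKM in controls 1 to 6, from 24, 18, 16, 15, 16 and 14 reads. It was 0 in all 6 EtOH livers. The groups did not overlap, as in 3.1% of all transcripts tested, and pooled over livers the controls stood at least 47.6-fold above the level that 3 reads over the whole EtOH group would give. Within single EtOH livers, 3 reads would have been worth 0.449 to 0.685 RPKM, below the lowest control. Of the 21718 transcripts above 0 anywhere, 3 (0.0138%) were above 0 in all controls and in no EtOH liver, and Dguok.1 was chosen as one of them. Control 1, at 8.27 RPKM, stood apart from the other controls.

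Dguok.2 moved the other way. In controls 1 to 6 it measured 0, 6.06, 5.66, 3.59, 6.58 and 5.70 RPKM, and in EtOH animals 1 to 6 it measured 9.29, 6.92, 8.57, 6.52, 7.28 and 8.20 RPKM. All EtOH livers but the one at 6.52 RPKM were above the highest control. Reads numbered 97 in all controls together and 216 in all EtOH livers together. The log2 difference (EtOH minus control, on the quantile-normalized log2(RPKM + 0.5) scale used throughout) was 1.16 with a standard error (SE) of 0.55, and 0.57 without control 1, the liver in which Dguok.2 took no reads. Dguok.2 held 47.4% ± 24.3 (SD, n = 6) of the Dguok RPKM in control livers and 100% in each EtOH liver.

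Added together, the transcripts of Dguok gave 9.41 ± 1.25 RPKM (SD, n = 6) in control and 7.80 ± 1.06 in EtOH livers, a ratio of 0.828. The control sums ran from 7.95 to 10.7 RPKM and the EtOH sums from 6.52 to 9.29 RPKM, so the groups overlapped, with 3 EtOH livers below the lowest control. The log2 difference of the sum was -0.14 (SE 0.10). It was -0.26 without normalization between livers and -0.29 with limma voom on recovered reads. Dguok thus differed between the groups mainly in which of its transcripts the reads were assigned to. How reads that match both transcripts were assigned was not given in the sources used here, and its part in the split was not tested.

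Such trading of reads between the transcripts of a gene was seen elsewhere in the table, also between livers of the same group. Of 2176 genes with at least 2 transcripts above 0 and at least 20 reads in every liver, 338 (15.5%) had a transcript without reads in 1 liver that held at least as many reads as the gene's other transcripts together in another. Such a pair of livers was found within the control group for 225 genes and within the EtOH group for 180. Within Dguok, control 1 showed it too, with all 24 of its reads on Dguok.1 and none on Dguok.2.

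**Figure D1:**
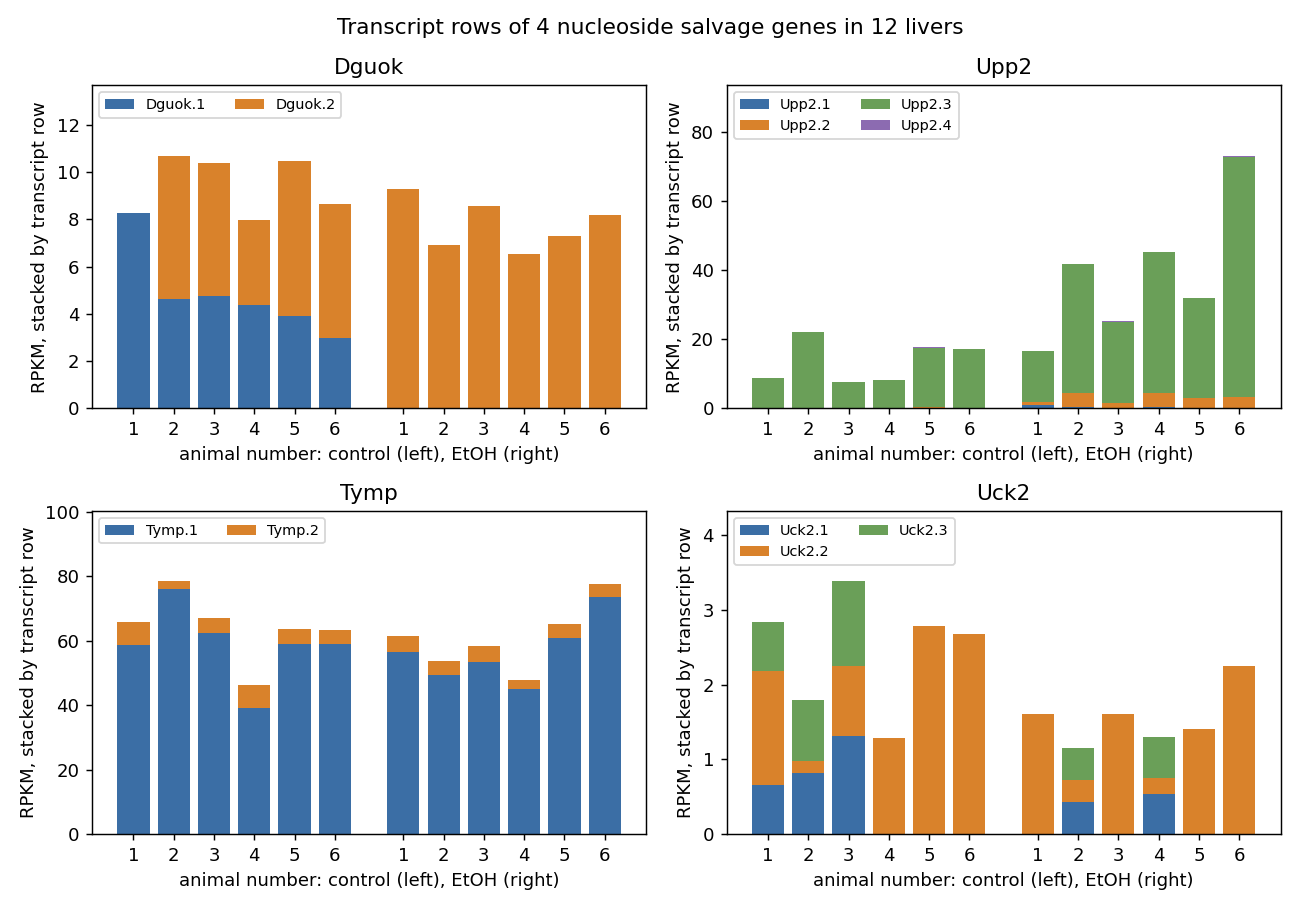
Stacked bars give the RPKM of each transcript of Dguok, Upp2, Tymp and Uck2 (y axis, from 0) in control animals 1 to 6 and EtOH animals 1 to 6 (x axis), so bar height is the sum over transcripts. Dguok.1 is absent from all 6 EtOH livers while the Dguok sum stays between 6.52 and 9.29 RPKM, and the Upp2 bars are nearly all Upp2.3 in every liver.

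The other mitochondrial deoxynucleoside kinase, thymidine kinase 2 (Tk2), phosphorylates thymidine and deoxycytidine. Its single transcript (chromosome 19, 667538 to 689556) measured 5.47, 6.34, 7.30, 6.07, 6.73 and 6.10 RPKM in controls 1 to 6 and 5.76, 4.19, 4.50, 5.07, 3.64 and 5.55 RPKM in EtOH animals 1 to 6. Of the EtOH livers, 4 were below the lowest control and none was above the highest. The means were 6.33 ± 0.629 and 4.79 ± 0.820 RPKM (SD, n = 6), with a log2 difference of -0.28 (SE 0.11) that did not pass the limma test (adjusted p = 0.235). Tk2 had the lowest unadjusted p among the transcripts of the genes that had not been chosen for a difference.

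Deoxycytidine kinase (Dck), the cytosolic kinase that takes deoxycytidine and purine deoxynucleosides, was near the lower end of what this depth could measure. Dck (chromosome 14, 20886826 to 20904305) had 19 reads in all controls together and 19 in all EtOH livers, at 0 to 2.39 RPKM (median 0.804) in controls and 0.419 to 1.30 RPKM (median 0.774) in EtOH livers. The ranges overlapped, and a difference could not be resolved at this depth (log2 difference 0.030, SE 0.43, limma adjusted p = 0.981).

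Upp2 was higher as a whole gene in EtOH livers, and most of the rise lay in its main transcript. Its 4 transcripts carry the same position on chromosome 3, 40492002 to 40536956, and differ in length, at 2580 nucleotides for Upp2.1, 2526 for Upp2.2, 2514 for Upp2.3 and 2526 for Upp2.4. Upp2.3 measured 8.61, 22.0, 7.41, 8.08, 17.1 and 17.2 RPKM in controls 1 to 6 and 14.9, 37.2, 23.6, 40.8, 29.0 and 69.7 RPKM in EtOH animals 1 to 6. Of the EtOH livers, 5 were above the highest control, and EtOH animal 1 lay within the control range. The means were 13.4 ± 6.17 and 35.9 ± 19.0 RPKM (SD, n = 6), a ratio of 2.67, with a log2 difference of 1.49 (SE 0.36).

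Upp2.2 showed a larger ratio at a far lower level. It was 0 in all controls except control 5, where 4 reads gave 0.386 RPKM. In EtOH animals 1 to 6 it measured 0.838, 4.06, 1.24, 4.05, 2.96 and 3.06 RPKM, from 208 reads in all. The groups did not overlap. Pooled over livers and per mapped read, EtOH livers were 37.5-fold above controls, a ratio that rests on the 4 reads of control 5. Without control 5 no control liver held a read of this transcript.

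The remaining Upp2 transcripts were rare. Upp2.1 had 5 reads in all controls and 28 in all EtOH livers, with means of 0.0924 and 0.359 RPKM. Upp2.4 had 4 and 13 reads, with means of 0.0696 and 0.162 RPKM. In both transcripts the ranges of the groups overlapped.

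The summed level of Upp2 was 8.88, 22.2, 7.53, 8.19, 17.7 and 17.3 RPKM in controls 1 to 6 and 16.7, 41.9, 25.3, 45.4, 32.1 and 73.2 RPKM in EtOH animals 1 to 6. The mean was 2.86 times as high in EtOH livers (13.6 ± 6.23 against 39.1 ± 19.8 RPKM, SD, n = 6), and the log2 difference was 1.59 (SE 0.35). The highest value was that of EtOH animal 6, which was also the animal aged 39 weeks, and without it the ratio was 2.37. Upp2.3 supplied 88.2% of the rise in the mean sum, Upp2.2 supplied 10.4%, Upp2.1 1.05% and Upp2.4 0.362%. The rise was therefore one of the gene, with a smaller shift among its transcripts, since Upp2.3 went from 98.2% ± 1.13 of the Upp2 RPKM in controls to 91.2% ± 2.56 in EtOH livers. Upp2 also varied more than Dguok between animals of 1 group, with a coefficient of variation of 45.6% in control and 50.6% in EtOH livers, against 13.2% and 13.6% for Dguok.

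Uridine phosphorylase 1 (Upp1), which catalyses the same reaction in many other tissues, stayed far below Upp2 in both groups. Upp1 (chromosome 14, 89651263 to 89669626) measured 0.314, 1.64, 0.270, 0, 0.667 and 0.771 RPKM in controls 1 to 6 and 1.35, 1.25, 0.273, 0.778, 1.29 and 1.21 RPKM in EtOH animals 1 to 6. The groups overlapped, and control 2 was the highest liver of all. With 16 reads in all controls and 33 in all EtOH livers, the log2 difference of 0.51 (SE 0.34) did not pass the limma test (adjusted p = 0.536).

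The uridine-cytidine kinases, which return uridine and cytidine to the nucleotide pool and so act against breakdown by the phosphorylases, had lower means in EtOH livers, but neither passed the test. Uck1 (chromosome 3, 11366645 to 11372517) measured 4.27 to 7.69 RPKM (median 5.00) in control and 3.55 to 5.52 RPKM (median 4.25) in EtOH livers, with 3 EtOH livers below the lowest control. Its log2 difference was -0.18 (SE 0.15, limma adjusted p = 0.649).

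Uck2 was listed as 3 transcripts at 1 position on chromosome 13, 82892893 to 82949575, with lengths of 1575, 1575 and 1578 nucleotides. Uck2.1 and Uck2.3 held reads in the same livers, controls 1, 2 and 3 and EtOH animals 2 and 4, and none in the others. Uck2.2 held all the reads in those others. The share of Uck2.2 in the Uck2 RPKM was 65.1% ± 40.8 in control and 73.6% ± 41.0 in EtOH livers (SD, n = 6), a difference of 8.49 percentage points (exact permutation test, two-sided, p = 0.773, adjusted over 2 genes p = 0.773). The split among Uck2 transcripts thus varied within both groups by more than it differed between them.

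Summed over transcripts, Uck2 measured 2.84, 1.79, 3.38, 1.29, 2.78 and 2.68 RPKM in controls 1 to 6 and 1.61, 1.16, 1.61, 1.30, 1.41 and 2.24 RPKM in EtOH animals 1 to 6. Only EtOH animal 2 was below the lowest control. The means were 2.46 ± 0.769 and 1.56 ± 0.381 RPKM (SD, n = 6), with a log2 difference of -0.50 (SE 0.19, limma adjusted p = 0.142 over all gene sums). The counts behind these sums were 87 reads in controls and 76 in EtOH livers.

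Thymidine phosphorylase (Tymp), which splits thymidine into thymine and a deoxyribose phosphate, was the most abundant of the genes. Tymp was listed as 2 transcripts on chromosome 7 that share the lower listed position, 127668223. The higher position was 127671335 for Tymp.1 and 127671326 for Tymp.2. Tymp.1 measured 39.1 to 76.0 RPKM (median 59.0) in control and 44.9 to 73.6 RPKM (median 54.9) in EtOH livers, and Tymp.2 measured 2.38 to 7.10 RPKM (median 4.57) and 3.04 to 5.21 RPKM (median 4.50). The sum was 64.1 ± 10.4 RPKM in control and 60.8 ± 10.2 RPKM in EtOH livers (SD, n = 6), with a log2 difference of 0.080 (SE 0.12, limma adjusted p = 0.734) whose sign turned to -0.076 without normalization between livers. The sum rested on 2064 reads in controls and 2677 in EtOH livers, more than for any other of the genes outside Upp2, and its groups overlapped. Tymp.1 held 91.6% ± 4.16 of the Tymp RPKM in controls and 92.8% ± 1.43 in EtOH livers (difference 1.12 percentage points, exact permutation test, two-sided, p = 0.578, adjusted p = 0.773).

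Cytidine deaminase (Cda), which turns cytidine and deoxycytidine into uridine and deoxyuridine, was barely detected. Cda (chromosome 5, 157117303 to 157143989) had 2 reads in all controls together and 3 in all EtOH livers together, with 4 livers at 0 in each group. No difference could be resolved from these counts (limma adjusted p = 0.969).

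**Figure D2:**
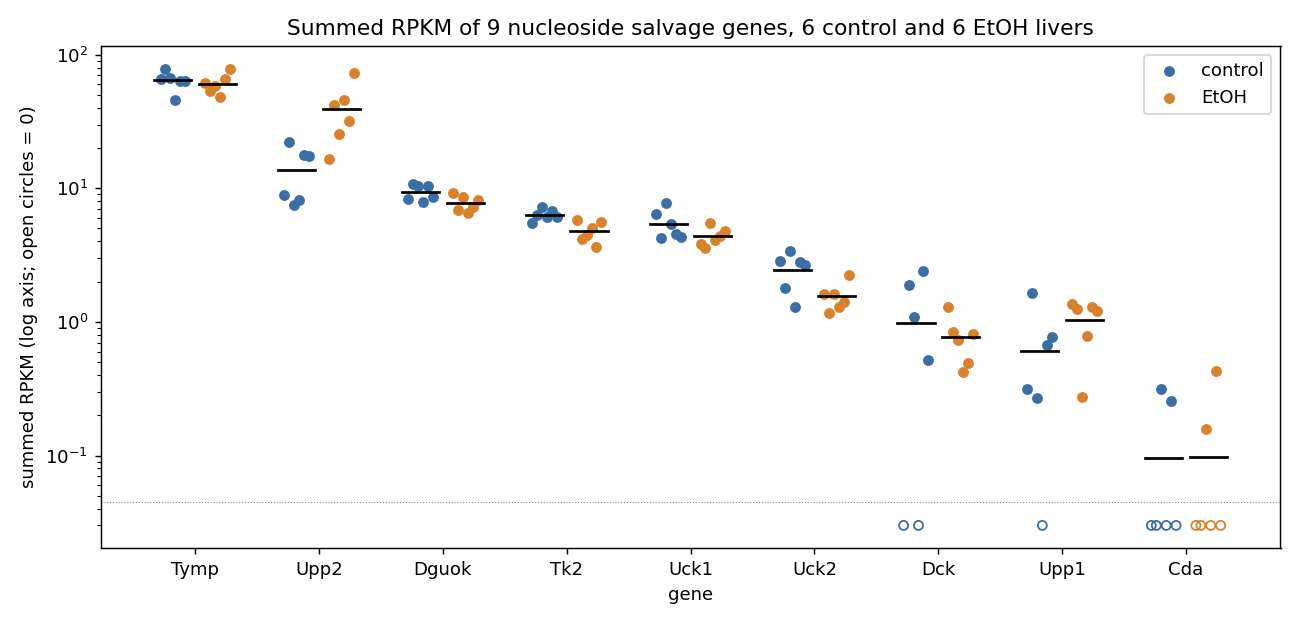
Points give the RPKM summed over transcripts (y axis, log scale, open circles at the bottom for 0) of the 9 genes (x axis) in each of 6 control and 6 EtOH livers, with group means as black lines. Upp2, which had been chosen for its difference, has 5 of 6 EtOH livers above the highest control. The groups overlap in Upp2 and in Dguok.

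Across all the relatives that had not been chosen for a difference, no change was called. Of their 10 transcripts, 0 were called by limma, 1 had an unadjusted p under 0.05 and 0 were called by limma voom on recovered reads. Of the 7 gene sums, 0 were called, 2 (Tk2 and Uck2) had an unadjusted p under 0.05 and 0 were called by voom. In the whole table, 2.42% of transcripts and 6.4% of gene sums were called, so with so few members a count of 0 does not set them apart from other genes. Calls in the whole table were split into 281 transcripts lower and 245 higher in EtOH livers (1.29% and 1.13%).

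In control livers the order of summed levels was Tymp, Upp2, Dguok, Tk2, Uck1, Uck2, Dck, Upp1 and Cda. The range of Tymp lay above that of Upp2, the ranges of Upp2 and Dguok overlapped, Dguok lay above Tk2, and Uck1 above Uck2. From Uck2 downward, each gene overlapped the next. In EtOH livers Upp1 came before Dck, with overlapping ranges, and the order was otherwise the same. Upp2 then lay above Dguok in all 6 livers without overlap, and its range overlapped that of Tymp, although Tymp was the higher of the pair in each liver.

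**Figure D3:**
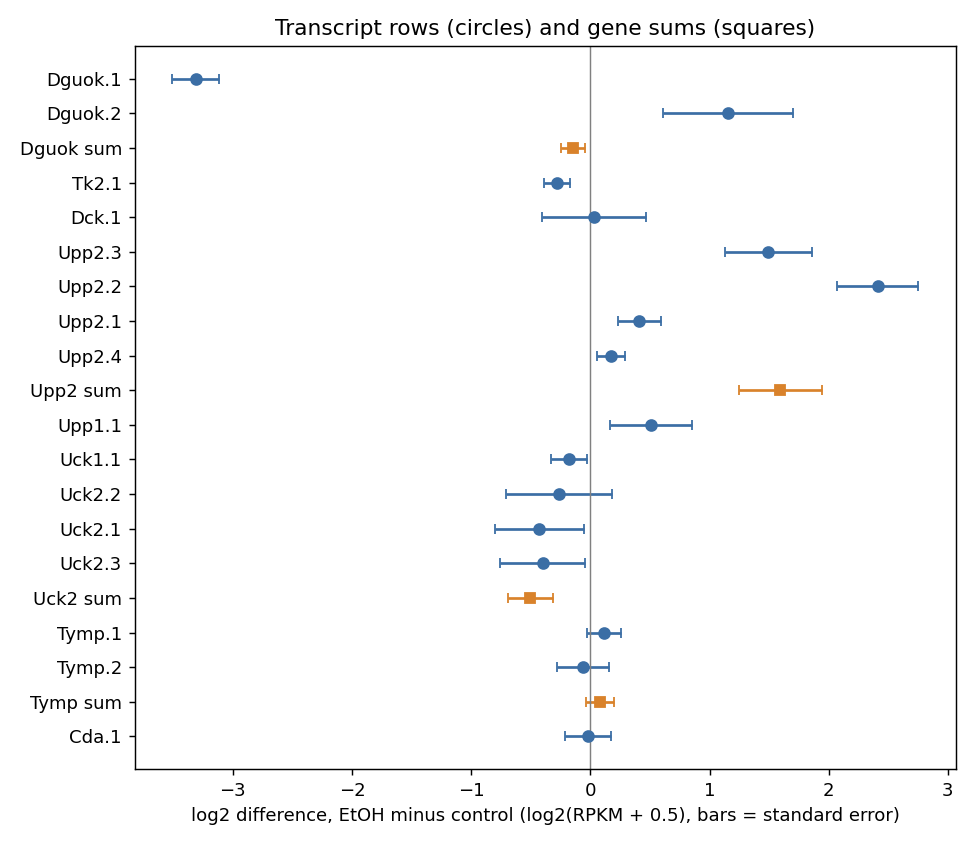
Circles (transcripts) and squares (gene sums) give the log2 difference, EtOH minus control, of log2(RPKM + 0.5) on the x axis, with bars for the standard error. Dguok.1 (-3.31) and Dguok.2 (1.16) lie on opposite sides of 0 with their sum at -0.14, while Upp2.3 (1.49) lies beside the Upp2 sum (1.59).

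Other genes of nucleotide metabolism were examined as gene sums from lists of 79 symbols, of which 61 were measured. In all, 3 were called higher and 4 lower in EtOH livers, against 3.16% called higher and 3.24% called lower over all 15270 gene sums. Sums at higher levels were called more often. With a mean of at least 1 RPKM required, 1250 of 9747 gene sums were called. Most of the measured list genes reach that mean, so this share is the nearer one to set beside the lists. The lists were not matched to the table in level, so whether they held more calls than other genes of their level was not tested. Among 8 genes of pyrimidine salvage and breakdown beyond the members, none was called, and the smallest p was that of the pyrimidine nucleoside monophosphate kinase Cmpk1 (log2 difference 0.21, SE 0.08, adjusted p = 0.130). The list's median log2 difference was 0.049, against 0.0029 over all gene sums.

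Pyrimidine synthesis, the route that salvage spares, held 2 called genes of 7, both lower. CTP synthase 1 (Ctps1, listed as Ctps), which makes CTP from UTP, measured 3.53 to 6.47 RPKM in control and 1.40 to 3.86 RPKM in EtOH livers (log2 difference -1.04, SE 0.20, adjusted p = 0.0129). The other CTP synthase, Ctps2, had higher means, 10.1 RPKM in control and 11.3 RPKM in EtOH livers, and was not called (log2 difference 0.29, SE 0.14, limma adjusted p = 0.261). The nucleoside diphosphate kinase Nme2, which adds the last phosphate to nucleotides, measured 142 to 201 RPKM in control and 115 to 131 RPKM in EtOH livers, without overlap (log2 difference -0.26, SE 0.05, adjusted p = 0.0160). Its close paralog Nme1 had a log2 difference of 0.10 (adjusted p = 0.602), and whether reads were shared between them was not tested. The median of the list was -0.31.

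Of the purine routes, salvage and breakdown had no call among 15 genes (median -0.055), with the smallest p at adenosine kinase (Adk, log2 difference 0.16, SE 0.05, adjusted p = 0.0780). Purine synthesis had 2 called genes of 10, in opposite directions (median -0.18). Gart, a trifunctional enzyme of the route, fell from 4.92 ± 1.18 to 2.94 ± 0.424 RPKM (SD, n = 6, log2 difference -0.58, limma adjusted p = 0.0317), and Pfas, which acts between steps of Gart, rose from 3.39 ± 0.459 to 4.59 ± 0.260 RPKM (log2 difference 0.45, limma adjusted p = 0.0202). In both genes the control and EtOH livers did not overlap, nor did they for 4.59% of all gene sums. The call of Gart was lost with the unmoderated square-root test (adjusted p = 0.0553) and with some livers left out (up to 0.0601, without EtOH animal 1).

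The single measured subunit of ribonucleotide reductase, Rrm2, makes deoxynucleotides for DNA replication and rose from 0.240 ± 0.143 to 1.24 ± 0.392 RPKM (SD, n = 6, log2 difference 1.17, limma adjusted p = 0.00481), on 7 reads in controls and 48 in EtOH livers. The dividing cell marker Ccnb1 rose beside it, from 0.256 ± 0.164 to 1.74 ± 1.23 RPKM (limma adjusted p = 0.0171), and its part in the Rrm2 value was not tested. Rrm2 thus stayed at a low level in both groups.

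Among 5'-nucleotidases, which return nucleotides to nucleosides, the surface enzyme Nt5e was called higher, 1 of 3 measured (list median 0.11), at 21.3 to 30.2 RPKM in control and 27.9 to 35.8 RPKM in EtOH livers (log2 difference 0.36, SE 0.09, adjusted p = 0.0421, and up to 0.185 without normalization). Nucleoside transporters had no call among 6 (median -0.031), with the smallest p at the concentrative carrier Slc28a2 (log2 difference 0.32, SE 0.14, adjusted p = 0.199). Of 11 genes that maintain mitochondrial DNA, the process that Dguok and Tk2 supply, 1 was called (median -0.10). This was the mitochondrial single-strand binding protein Ssbp1, which fell from 14.0 ± 2.13 to 9.16 ± 1.15 RPKM (SD, n = 6, log2 difference -0.46, limma adjusted p = 0.0248, and up to 0.0541 with 1 liver left out, EtOH animal 2).

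**Figure D4:**
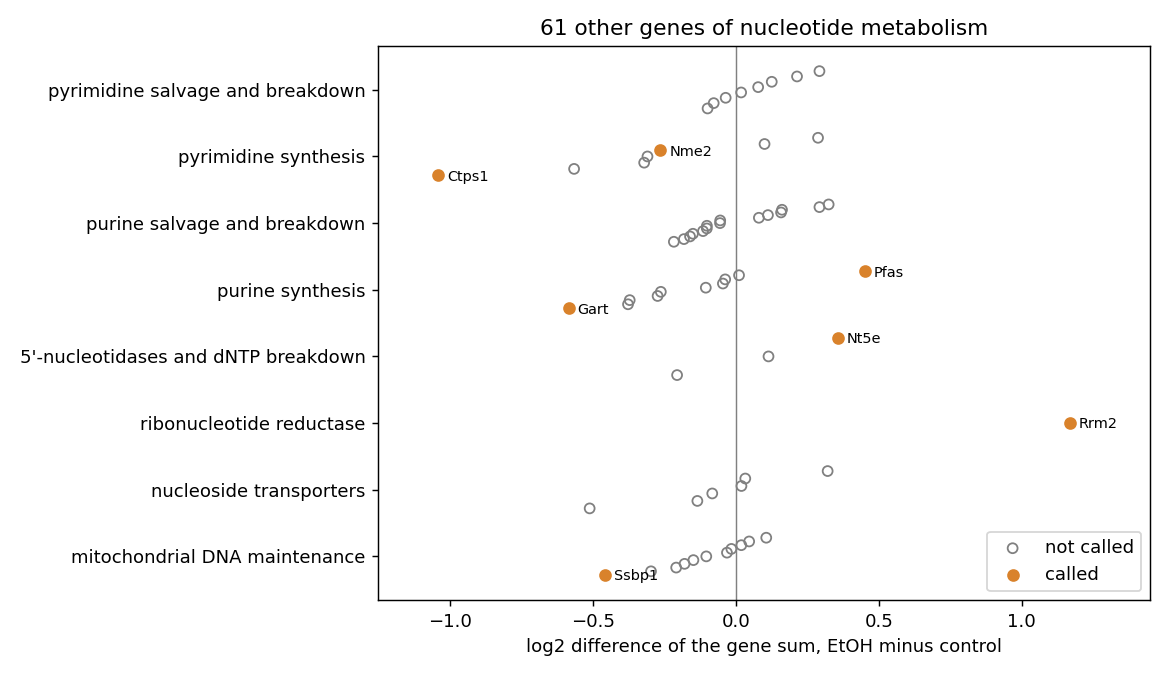
Each circle is 1 of 61 other genes of nucleotide metabolism, placed by its log2 difference of the gene sum, EtOH minus control (x axis), in its list (y axis). Filled circles passed the limma test: Ctps1, Nme2, Gart and Ssbp1 to the left of 0, and Pfas, Nt5e and Rrm2 to the right.

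The transcripts whose pattern over the 12 livers was most like that of Upp2.3, among 11086 with a mean of at least 1 RPKM, were those of Ppap2b (r = 0.96), Erbb3 (r = 0.94), LOC100360066 (r = 0.93), Ivd (r = 0.93) and Insig2 (r = 0.92). Ivd breaks down leucine, and Insig2 holds back activation of sterol regulatory proteins. Those most like Dguok.2 were transcripts of Cpeb4 (r = 0.96), D3Z900_RAT (r = 0.94), Depdc5 (r = 0.94), Agap1 (r = 0.94) and Strn3 (r = 0.94). Dguok.2 was at 0 in control 1 alone, the liver with the fewest reads. The correlations with Dguok.2 therefore lean on that liver, and they were not repeated without it. The points share their libraries and depths and hold both groups, so these correlations are a description over 12 livers only.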

How the data were processed

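With CLCbio Genomics Workbench 4.9 the authors mapped paired-end reads of 101 nucleotides, and they deposited RPKM per liver for 34391 transcripts. Build, annotation and the assignment of shared reads were not given in the sources used here. The deposited fold changes, test statistics, p-values and FDR were not used. The members and lists were chosen with earlier results of these data known. Whole reads and transcript lengths were recovered from the RPKM steps. Of 9087 transcripts tested for a whole length, 9086 had one within 0.02 nucleotides. A transcript above 0 in 1 liver only, as 2052 were, always comes out whole in reads. All 21718 transcripts above 0 in at least 1 liver came out whole within 0.01 read. For these, and for RPKM summed by gene name (15270 sums), quantile-normalized log2(RPKM + 0.5) was compared between 6 EtOH and 6 control livers with limma 3.58.1 (R 4.3.3, mean-variance trend), p-values adjusted by Benjamini-Hochberg and called under 0.05. Fold changes on this scale understate those of low genes. Shares were compared by two-sided exact permutation over 924 regroupings, whose smallest p is 0.00216. Replicates are separate animals. Scripts were tested on simulated data. Genes outside the members were named by rule: called genes of each list (up to 6), otherwise the one with the smallest p, the 5 most similar transcripts, and the most abundant markers. The count of genes that trade reads between transcripts was added after the data were seen. Markers beyond the most abundant, Nme1, Ctps2 and the called marker genes were named after their values were seen. Alternatives were other pseudocounts, scalings, filters, square-root scales, no trend, a replicate block, limma voom on recovered reads (quantile-normalized) and each liver left out.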

Additional observations from a re-analysis of the deposited data

Results flagged for a closer look

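Of 39 groups of 6 livers examined, 4 held a liver far from the other livers. For independent normal values, chance alone gives about 1 in 20. That rate does not hold for transcripts with a few reads, and sums share reads with their transcripts. Control 1 had 8.27 RPKM of Dguok.1, and the other controls had 2.96 to 4.75 RPKM. Control 5 had 0.386 RPKM of Upp2.2 from 4 reads, and the other controls had 0. Control 6 had 0 RPKM of Upp2.1, and the other controls had 0.0944 to 0.133 RPKM from 1 read each. EtOH animal 5 had 0.428 RPKM of Cda from 2 reads, and the other EtOH livers had 0 to 0.158 RPKM.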

How the results depend on the processing

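Called transcripts numbered 526, against 322 with the unmoderated square-root test, 860 at a mean of at least 1 RPKM, 113 with a replicate block and 212 to 656 with 1 liver left out (212, 252, 295 and 298 without EtOH animals 2, 3, 4 and 5, and 275 and 285 without controls 2 and 4). Called gene sums numbered 977, against 650, 450 with the block and 565 to 991 with 1 liver left out (565, 607 and 646 without EtOH animal 2, control 2 and control 4). Without normalization, 648 of 774 called transcripts and 988 of 1279 called sums were lower in EtOH livers, and with median scaling 337 of 531 and 575 of 1029, against 281 of 526 and 495 of 977. The median log2 shift before normalization was -0.082 and -0.085. Called genes of the nucleotide lists numbered 7, against 3 with the block and 4 to 8 with 1 liver left out (4 without control 4 or EtOH animal 4). The labels do not say that a shared number marks a shared litter, cage or day. Same-number correlations of deviations were -0.067 to 0.032, and 1 of 6 controls correlated best with its own number. A shared litter, cage or day can leave such correlations low, so pairing was not settled by them. With the block, Gart, Pfas, Nt5e and Ssbp1 lost their calls. Gart also lost its call with the unmoderated square-root test, Gart and Ssbp1 with some livers left out, and Nt5e in 15 of 23 alternatives. The calls of Ctps1 and Nme2 held in every alternative run. That of Rrm2 held in the 22 alternatives in which it was fitted, since the filter at a mean of 1 RPKM removed it. Signs reversed for Dck at pseudocount 1 (-0.043), Tymp.1 and the Tymp sum without normalization (-0.057 and -0.076) and Cda with median scaling (0.016). With 1 liver left out, log2 differences ran from -0.22 to 0.27 for Dck, -0.15 to 0.090 for Cda, -0.23 to 0.038 for Tymp.2 and -0.0036 to 0.15 for the Tymp sum, and share differences from -2.72 to 19.9 points for Uck2.2 and -0.257 to 2.18 points for Tymp.1. The differences of low transcripts moved with the pseudocount (0.1, then 1) and with voom: Dguok.1 to -5.51, -2.46 and -5.28, and Upp2.2 to 4.23, 1.72 and 5.22. The causes were not tested. Dck, Cda, Upp1 and the rare Upp2 and Uck2 transcripts rest on too few reads for small differences to be seen.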
